A study of Homo sapiens with 9 samples.

Results

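The genes of small nucleolar RNAs (snoRNAs) and small Cajal body RNAs (scaRNAs) were followed in polyadenylated RNA of HEK293 cells, an established human embryonic kidney line. The genes were chosen by 2 criteria, a symbol that begins with SNORA, SNORD or SCARNA and a value above 0 in at least 3 of the 9 libraries, so that being listed above 0 is a property of the choice and not a result. Of 802 such genes in the expression table, 36 met both criteria (4.49%), namely 26 SNORA, 4 SNORD and 6 SCARNA genes. The table held 54562 genes in all. The libraries fell into 3 groups of 3. Cells of the EV group had received the empty vector, cells of the Short group a construct for the ADARB1 isoform that skips an Alu exon, and cells of the Long group a construct for the isoform that includes it. ADARB1 encodes an adenosine deaminase that edits double-stranded RNA. Each group had replicates 1, 2 and 3, made in 3 separate cell passages and collected 48 h after transfection. Same-numbered libraries were taken to share a passage and were paired. All 3 groups were transfected, and untransfected cells were not analysed here.

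snoRNAs are short non-coding RNAs of the nucleolus that guide chemical modification of ribosomal RNA. Box H/ACA snoRNAs (SNORA) end in an ACA triplet and guide the conversion of uridine to pseudouridine, while box C/D snoRNAs (SNORD) carry C and D boxes near their ends and guide methylation of the ribose. scaRNAs (SCARNA) have the same boxes and guide modification of spliceosomal RNAs in Cajal bodies. Most human snoRNAs are cut out of introns of longer host genes and, as mature RNAs, carry no poly(A) tail. A library made from polyadenylated RNA can therefore hold fragments of host transcripts that still contain the snoRNA, and the values below cannot tell such fragments from the mature RNA.

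Genes on which the results turned are shown first, read 5′ to 3′ from the GRCh37 genome on the strand of the gene. In the box H/ACA genes the capitals mark the last ACA before the 3′ end, and in the box C/D gene they mark the C box (NTGATGA) and the D box (CTGA). SNORA21 is shown in its 2 copies, both of which lie in RPL23 on the minus strand, because only 1 copy was among the 36 genes. That copy lies at chr17:37007777-37007912, and the other copy lies at chr17:37009116-37009247.

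SNORA21, 136 nt: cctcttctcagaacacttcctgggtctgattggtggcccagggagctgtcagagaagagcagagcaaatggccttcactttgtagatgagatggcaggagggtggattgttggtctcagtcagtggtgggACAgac
SNORA21, other copy, 132 nt: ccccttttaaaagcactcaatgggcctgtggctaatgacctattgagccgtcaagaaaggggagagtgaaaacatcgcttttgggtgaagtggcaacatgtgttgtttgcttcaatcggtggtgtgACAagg
SNORA52, 134 nt, chr11:811681-811814, plus strand: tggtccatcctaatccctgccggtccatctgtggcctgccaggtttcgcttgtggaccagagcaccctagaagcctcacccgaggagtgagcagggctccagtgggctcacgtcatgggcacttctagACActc
SNORA48, 135 nt, chr17:7478031-7478165, plus strand: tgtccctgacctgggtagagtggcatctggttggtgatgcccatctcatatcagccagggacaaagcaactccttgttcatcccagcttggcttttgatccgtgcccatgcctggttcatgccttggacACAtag
SNORA73 in RPS7, 163 nt, chr2:3628160-3628322, plus strand: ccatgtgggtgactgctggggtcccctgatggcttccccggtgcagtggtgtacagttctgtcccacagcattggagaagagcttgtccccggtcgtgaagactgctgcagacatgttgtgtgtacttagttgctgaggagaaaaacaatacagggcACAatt
SNORA73B, 204 nt, chr1:28835071-28835274, plus strand: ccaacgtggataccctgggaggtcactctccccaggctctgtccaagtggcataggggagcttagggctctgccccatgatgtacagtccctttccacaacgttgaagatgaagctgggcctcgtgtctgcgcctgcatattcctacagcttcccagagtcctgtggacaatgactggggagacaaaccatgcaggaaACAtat
SNORD17, 237 nt, chr20:17943353-17943589, minus strand: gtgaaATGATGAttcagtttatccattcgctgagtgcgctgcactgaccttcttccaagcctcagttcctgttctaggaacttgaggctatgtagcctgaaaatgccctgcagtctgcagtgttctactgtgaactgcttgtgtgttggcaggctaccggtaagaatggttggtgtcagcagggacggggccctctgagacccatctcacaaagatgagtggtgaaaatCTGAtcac

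The 2 SNORA21 copies were identical in 84 of 138 aligned columns (60.9%). SNORA73 in RPS7 and SNORA73B were identical in 103 of 204 columns (50.5%). An ACA placed exactly 3 nt from the 3′ end was present in 17 of the 26 SNORA genes (65.4%) and in 60.7% of the 361 SNORA genes above 0 in fewer than 3 libraries. The C box occurred in 3 of the 4 SNORD genes and in 63.5% of the 362 other SNORD genes, and the D box within the last 12 nt in 3 of 4 and 73.2%. All were searched on the strand of the gene.

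The expression values were FPKM (fragments per kilobase of gene and per fixed number of mapped fragments), a level scaled for gene length and library size. Counts were not analysed here, so the depth of each library is unknown. The introduced gene, ADARB1, stood at 7.66 to 8.61 FPKM in EV, 1889 to 4145 in Short and 1695 to 3449 in Long, as labelled. VIM was at 132 to 164 FPKM and KRT8 at 163 to 216, while HBB was listed at 0 and PTPRC, ALB and CDH5 stayed at or below 0.326 FPKM in the 9 libraries. COL1A1, a fibroblast collagen, was at 9.10 to 12.9 FPKM. Between 19 and 31 of the 36 genes were above 0 in a library. Their summed level was 23.8, 48.6 and 49.1 FPKM in EV, 32.9, 44.6 and 51.1 in Short, and 37.4, 47.6 and 53.4 in Long, so that replicate 1 had the lowest sum in each group and the groups overlapped. In RNA from a whole culture, fewer cells with an RNA and less of it per cell cannot be told apart.

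**Figure D1:**
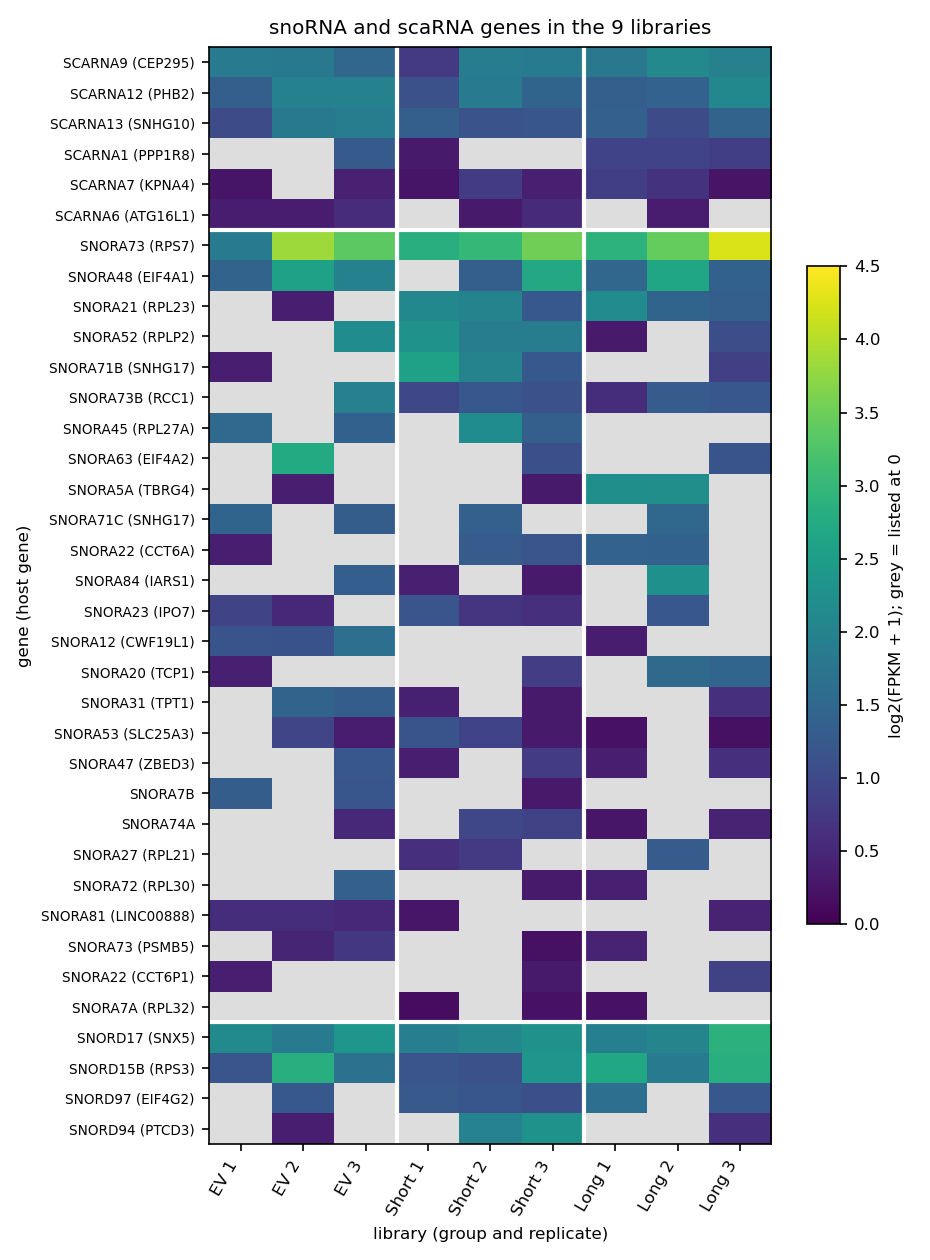
Level of each of the 36 genes (rows, with the host gene in parentheses) in each library (columns), as log2(FPKM + 1) on the colour scale, with grey for a gene listed at 0. SNORA73 in RPS7 is the brightest row, and 6 genes have no grey cell.

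Most snoRNA genes were listed at 0. Of the 802, 715 were at 0 in all 9 libraries, 35 were above 0 in 1 library and 16 in 2. Just inside the limit, 6 genes were above 0 in 3 libraries, with means over the 9 libraries of 0.0488 to 0.899 FPKM. Just outside it, the 16 genes above 0 in 2 libraries had means of 0.0327 to 0.474 FPKM, so the ranges on either side of the limit overlapped. The chosen genes made up 6.72% of the 387 SNORA genes, 1.09% of the 366 SNORD genes and 12.2% of the 49 SCARNA genes.

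The chosen genes had a higher median length than the genes at 0, and the ranges overlapped. Lengths are those of the annotation used here, which may differ from those behind the deposited values. The 36 genes measured 126 to 353 nt, with a median of 140.5 nt, and the 715 genes at 0 measured 43 to 238 nt, with a median of 95 nt. None of the 378 snoRNA and scaRNA genes of up to 100 nt was above 0 in any library. The share above 0 in at least 1 library was 1 of 45 from 101 to 120 nt, 11 of 113 from 121 to 130 nt, 45 of 185 from 131 to 140 nt, 17 of 63 from 141 to 200 nt and 13 of 18 above 200 nt. From 131 to 140 nt this was 24.3% of the snoRNA and scaRNA genes, and of the genes outside these families it was 7 of 173 (4.05%). Of the genes outside these families of up to 100 nt, 6 of 2249 (0.267%) were above 0 in at least 1 library. Values of 0 at this length were therefore not particular to snoRNA and scaRNA genes. Box C/D snoRNAs, whose median length was 75 nt in the table, fell mostly in this length class, in which no family member was above 0.

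**Figure D2:**
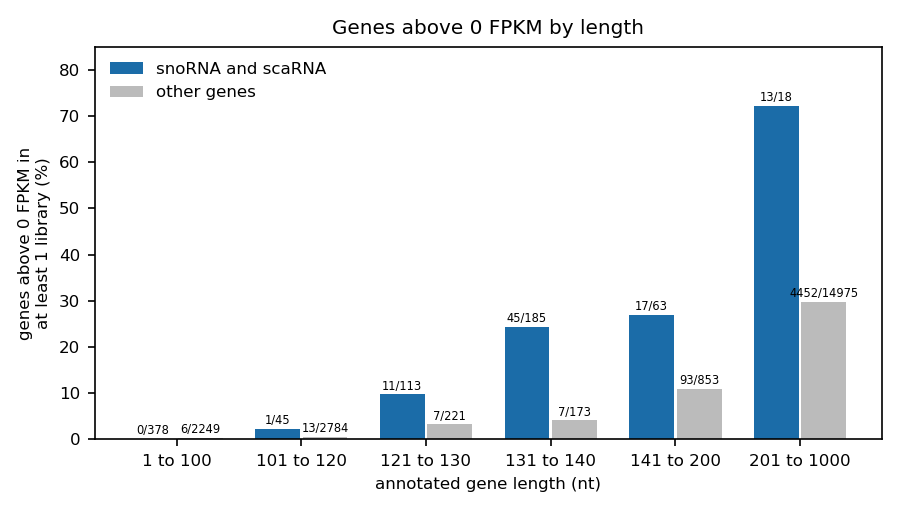
Share of genes above 0 FPKM in at least 1 library (vertical axis, percent) by annotated gene length in nt (horizontal axis), for snoRNA and scaRNA genes in blue and all other genes in grey, with the number above 0 over the number of genes on each bar. No blue bar stands at 1 to 100 nt (0 of 378), and the tallest is 13 of 18 at 201 to 1000 nt.

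All 36 genes lay inside another annotated gene on the same strand. For 22 of them the overlap was with introns only, 11 lay whole within annotated exons of such a gene and 3 lay partly in them. In 7 of the 11 the exon belonged to a transcript annotated as retaining an intron, namely in SNORA21 (RPL23), SNORA52 (RPLP2), SNORA48 (EIF4A1), SNORA63 (EIF4A2), SNORA27 (RPL21), SCARNA12 (PHB2) and SNORA73 (RPS7). The host was measured for 34 genes, in 33 host genes of which 29 encode proteins and 8 encode ribosomal proteins. The host means ran from 3.92 to 2332 FPKM with a median of 122.9 FPKM. Where several same-strand genes overlapped, the one with the highest mean was taken as the host, which favours a host level above the snoRNA level. No snoRNA or scaRNA gene had a mean above that of its host. Their means were 0.00356% to 31.7% of the host's, with a median of 1.21%, both per length. SNORA21 stood at 0.113% of RPL23 and SNORD15B at 0.145% of RPS3, whereas SCARNA9 reached 31.7% of CEP295 and SCARNA13 19.9% of SNHG10. SCARNA13 also lay opposite an exon of GLRX5, SNORD97 opposite an exon of CTR9 and SNORA72 opposite an exon of RPL30-AS1. The libraries kept strand, but whether strand was used in the quantification is not given in the sources used here.

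Part of the values moved in steps. For 2 snoRNA or scaRNA genes of the same length in the same library, a fragment is worth about the same FPKM, and 73 such pairs of values above 0 could be formed. Of these, 35 (47.9%) stood at a whole ratio within 0.5%, and the majority did not. Among the 35, 21 pairs were equal, in 7 of the libraries, and 11 stood at ratios of 2, 3 or 4. The equal pairs lay mostly in EV 3 and Short 3, where several genes of one length shared a value and each combination of them counts as a pair. SNORA48 was 2 times as high as SNORA55 in EV 3 (2.93 against 1.46 FPKM), 3 times as high in Long 2 (5.33 against 1.78 FPKM) and 4 times as high as SNORA67 in Short 3 (5.54 against 1.39 FPKM). In Short 2 it equalled SNORA67, at 1.57 FPKM. Against lower genes of its length SNORA48 stood at larger ratios, for example 22.1 times SNORA4 (0.251 FPKM) in Short 3, 16.7 times SNORA42 in EV 2 (0.296 FPKM) and 5.58 times SNORA14B in EV 1 (0.304 FPKM). Genes of 131 to 140 nt gave 110 values above 0, of which 35 were below 0.35 FPKM, 14 from 0.35 to 1.2, 42 from 1.2 to 2 and 19 above 2. A level near 1.5 FPKM was therefore common at this length, and lower values also occurred.

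**Figure D3:**
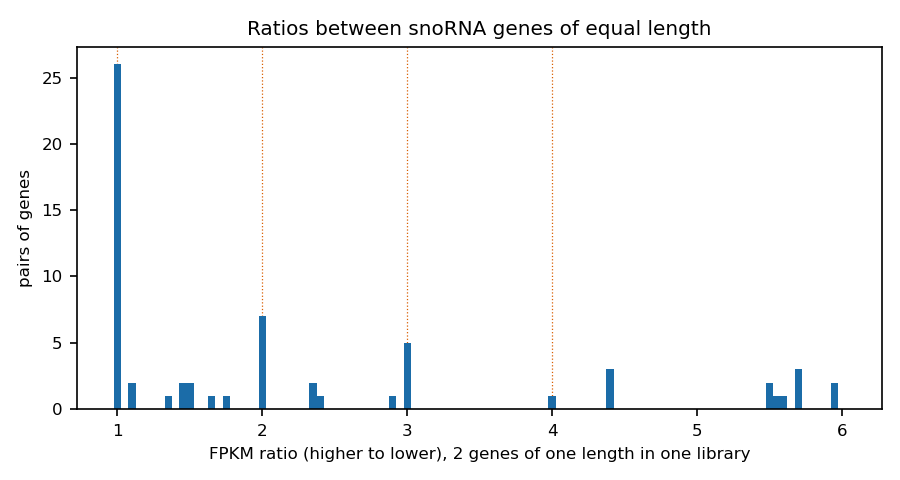
Number of pairs (vertical axis) by the FPKM ratio of the higher to the lower of 2 snoRNA or scaRNA genes of equal length in one library (horizontal axis, ratios below 6), with dotted lines at whole ratios. The tallest bar stands at 1, where 21 pairs were equal within 0.5%, and smaller bars stand at 2 and 3.

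Group comparisons were made where the mean over the 9 libraries reached 1 FPKM, which kept 11 of the 36 genes (6 SNORA, 2 SNORD and 3 SCARNA) among 13801 genes in all. The mean includes each group, so a gene high in 1 group could enter through it, and counts over the 11 are given as a description. limma was fitted to log2(FPKM + 1) in all 9 libraries with the replicate number as a block, and Benjamini-Hochberg adjustment ran over all genes tested. Fold changes are on this log2 scale and understate changes of low genes. In Short against EV, 1 of the 11 genes passed an adjusted p of 0.05, where 0.0362% of all genes tested did (0.029% as higher). In Long against EV, 1 of the 11 passed, against 8.32% of all genes (1.99% as higher), and in Long against Short none did, against 0.00725%. At an unadjusted p under 0.05 the counts were 3, 1 and 3 of the 11, beside 22%, 24.4% and 7.54% of all genes. The groups did not overlap for 2, 1 and 2 of the 11 genes, beside 13%, 13.6% and 3.83%. The median log2 fold changes of the 11 genes were -0.03, 0.16 and 0.15 and those of all genes tested 0.04, 0.04 and -0.02, in the order Short against EV, Long against EV and Long against Short. The first 2 comparisons share the EV libraries.

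SNORA21 in RPL23, a box H/ACA snoRNA, was higher in both ADARB1 groups than with the empty vector, and it was the gene that passed in both. In replicates 1, 2 and 3 its level was 0, 0.294 and 0 FPKM with EV, 3.29, 3.04 and 1.35 with Short and 3.50, 1.73 and 1.57 with Long. All 6 ADARB1 libraries lay above all 3 EV libraries, and Short and Long overlapped. By limma, Short exceeded EV by 1.66 (SE 0.19, adjusted p = 0.0156) and Long exceeded EV by 1.54 (SE 0.19, adjusted p = 0.00884), both higher in 3 of 3 pairs. Long against Short gave -0.12 (SE 0.19, adjusted p = 0.970). SNORA21 was known from earlier results of these libraries when it was singled out, and it reached the mean of 1 FPKM through the Short and Long libraries, so these p-values are not independent evidence. Counts were not analysed, so the SE cannot show how many fragments lie behind these low values. An exact permutation test over 3 against 3 libraries (two-sided) gave p = 0.1 in both comparisons with EV, the smallest this design allows, and the exact test over the 3 pairs gave its smallest, 0.25. The sizes depended on the constant added before taking logs. With 0.1 FPKM in place of 1, they were 3.98 (adjusted p = 0.0153) and 3.82 (adjusted p = 0.0115). Both calls were lost without replicate 1, with log2 fold changes of 1.44 (adjusted p = 0.239) for Short and 1.22 (adjusted p = 0.128) for Long. Without the replicate block the adjusted p-values were 0.579 and 0.637, and with no minimum level 0.223 and 0.104. The Short call was also lost in 4 further settings, with adjusted p-values from 0.0520 to 0.0972.

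The levels of SNORA21 were equal to those of other snoRNA genes in several libraries. In Long 2 it equalled SNORA80B, of the same length, at 1.73 FPKM. In Short 2 and Short 3 it equalled SNORA71B, at 3.04 and 1.35 FPKM, although the annotation used here gives SNORA71B 272 nt. The length behind the deposited values of SNORA71B may therefore be another one. The length classes and same-length pairs above carry this limit. The value of SNORA21 in EV 2 lies in the low band of genes of 131 to 140 nt, below 0.35 FPKM. Those in Short 3, Long 2 and Long 3 (1.35, 1.73 and 1.57 FPKM) lie in the common band from 1.2 to 2 FPKM. Short 1, Short 2 and Long 1 stood above 2 FPKM. In Short 2, SNORA48 and SNORA67, of 135 nt, shared 1.57 FPKM. In Short 3, SNORA67 stood at 1.39 FPKM, and values of 0.251 FPKM also occurred at 135 nt. How many fragments lie behind the values of SNORA21, of 136 nt, is unknown and may be few. Its host RPL23, a protein of the large ribosomal subunit, ran from 1346 to 1457 FPKM in EV, 1339 to 1537 in Short and 1359 to 1584 in Long, and the groups overlapped. RPL23 changed by 0.06 in Short (adjusted p = 0.406) and by 0.10 in Long (adjusted p = 0.150). The other SNORA21 copy in RPL23 was listed at 0 in 8 libraries and at 0.932 FPKM in Long 1. What part of the SNORA21 values came from RPL23 transcripts that keep the intron was not tested.

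**Figure D4:**
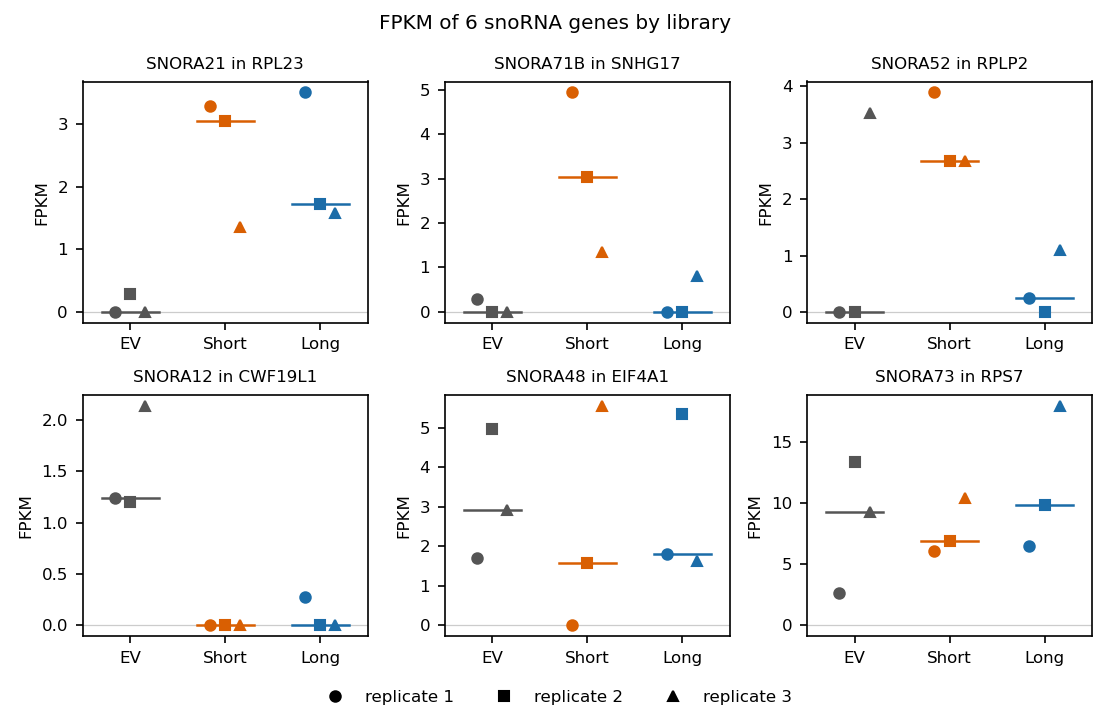
FPKM (vertical axes) of 6 snoRNA genes in EV, Short and Long, with a symbol for each replicate number and a bar at the median of each group. SNORA21 sits at or below 0.294 FPKM in EV and at 1.35 FPKM or above elsewhere, SNORA71B and SNORA52 have their highest median in Short, and SNORA12 is above 1 FPKM in EV alone.

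SNORA71B, a box H/ACA snoRNA in an intron of the non-coding gene SNHG17, stood apart in Short. It was listed at 0.302, 0 and 0 FPKM with EV, 4.93, 3.04 and 1.35 with Short and 0, 0 and 0.813 with Long. The Short libraries lay above all others. The difference was 1.81 for Short against EV (SE 0.31, adjusted p = 0.110) and -1.65 for Long against Short (SE 0.31, adjusted p = 0.547), neither past the threshold, while Long against EV gave 0.16 (SE 0.31, adjusted p = 0.800). Without replicate 3 the first rose to 2.10 (adjusted p = 0.00170) and the second went to -2.29 (adjusted p = 0.00230). Without replicate 1 they were 1.62 and -1.19. SNHG17 itself averaged 35.4 FPKM in EV, 40.0 in Short and 38.1 in Long.

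SNORA52, a box H/ACA snoRNA within RPLP2, was likewise at its highest in Short. Its values were 0, 0 and 3.54 FPKM with EV, 3.89, 2.69 and 2.68 with Short and 0.255, 0 and 1.11 with Long. EV 3 lay among the Short libraries, and Short and Long did not overlap. Short against EV gave 1.29 (SE 0.37, adjusted p = 0.112) and Long against Short -1.55 (SE 0.37, adjusted p = 0.547). Without replicate 3 these were 2.09 (adjusted p = 0.00170) and -1.92 (adjusted p = 0.00373), and without replicate 1 they were 0.79 and -1.34. SNORA52 and SNORA71B both reached a mean of 1 FPKM through their Short libraries, so their p-values are a description and not support for a difference.

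The highest level belonged to SNORA73 in RPS7, which shares its family name with the snoRNA SNORA73B that takes part in cleavage of the ribosomal precursor. It was at 2.68, 13.4 and 9.30 FPKM with EV, 6.11, 6.95 and 10.5 with Short and 6.53, 9.86 and 18.0 with Long. The 3 groups overlapped. Long against EV gave 0.50 (SE 0.27, adjusted p = 0.280) and Long against Short 0.42 (SE 0.27, adjusted p = 0.805). The first was 0.96 without replicate 2 and then passed (adjusted p = 0.0427), and it was 0.24 without replicate 1 and 0.31 without replicate 3. The second was 0.27 without replicate 3. Only the replicate 2 pair was lower in Long than in EV, so the pass without it is no support for a difference. SNORA48, a box H/ACA snoRNA within EIF4A1, was the second among the SNORA genes by mean. Its values were 1.70, 4.96 and 2.93 FPKM with EV, 0, 1.57 and 5.54 with Short and 1.80, 5.33 and 1.62 with Long, so that the spread within Short exceeded the distance between groups. Short against EV gave -0.64 (SE 0.43, adjusted p = 0.400). Without replicate 3, whose pair alone was higher in Short, it was -1.32 (adjusted p = 0.00586), and without replicate 1 it was -0.24. The fit without replicate 3 dropped the pair that went the other way, so its p-value is no support for a difference.

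Of the box C/D snoRNAs, SNORD17 in an intron of SNX5 and SNORD15B in an intron of RPS3 were above 0 in all 9 libraries. SNORD17 was at 3.44, 2.68 and 4.15 FPKM with EV, 2.78, 3.21 and 3.98 with Short and 2.85, 3.16 and 6.40 with Long. SNORD15B was at 1.27, 6.17 and 2.19 FPKM with EV, 1.27, 1.18 and 4.16 with Short and 5.39, 2.66 and 6.07 with Long. Long lay above Short in all 3 pairs for SNORD15B, but the groups overlapped and the difference of 0.90 (SE 0.40, adjusted p = 0.659) did not pass. Long against EV gave 0.56 (SE 0.40, adjusted p = 0.433). Without replicate 2, whose pair alone was lower in Long, it was 1.32 (adjusted p = 0.0362), and without replicate 1 it was 0.09. With the opposing pair dropped, a p-value under the threshold is no support for a difference. The host RPS3, of the small ribosomal subunit, averaged 2185 FPKM in EV and 2442 in Long. SNORD97 within EIF4G2 was above 0 in 6 libraries, at up to 2.11 FPKM. SNORD94 in PTCD3 was above 0 in 4, at 2.96 and 3.93 FPKM in Short 2 and Short 3 and at 0.538 FPKM or below elsewhere.

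Of the 6 scaRNAs, SCARNA9, SCARNA12 and SCARNA13 were above 0 in every library. SCARNA9, in an intron of CEP295, was at 2.62, 2.55 and 1.81 FPKM with EV, 0.704, 2.77 and 2.60 with Short and 2.48, 3.32 and 2.87 with Long. Long lay above Short in 3 of 3 pairs, with a difference of 0.45 (SE 0.22, adjusted p = 0.697) that was 0.15 without replicate 1, which holds the low Short library. SCARNA12, within PHB2, was at 1.56, 2.93 and 2.94 FPKM with EV, 1.18, 2.65 and 1.72 with Short and 1.59, 1.67 and 3.28 with Long. Short was lower than EV in 3 of 3 pairs, with a difference of -0.29 (SE 0.17, adjusted p = 0.342), and the groups overlapped. SCARNA13, within SNHG10, ran from 1.04 to 2.70 FPKM in EV, 1.22 to 1.58 in Short and 1.06 to 1.68 in Long. SCARNA7 in KPNA4 was above 0 in 8 libraries at up to 0.788 FPKM. SCARNA1 in PPP1R8 was at 0, 0 and 1.43 FPKM with EV, 0.249, 0 and 0 with Short and 0.881, 0.869 and 0.792 with Long.

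**Figure D5:**
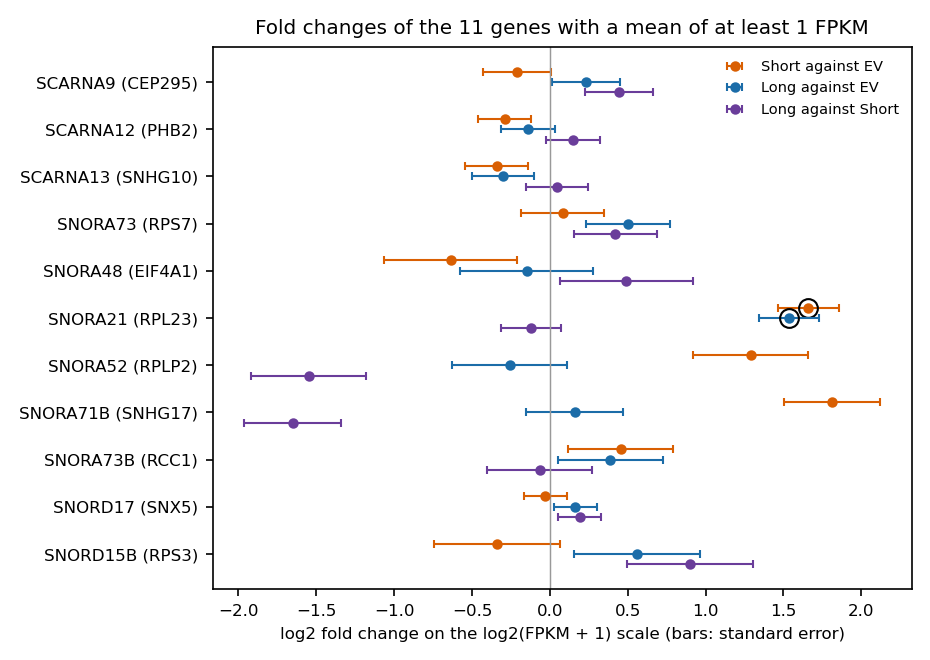
Difference between groups in log2(FPKM + 1) (horizontal axis, bars are standard errors) of the 11 tested genes in Short against EV (orange), Long against EV (blue) and Long against Short (purple), with rings on values whose adjusted p was under 0.05. The only rings are on SNORA21, at 1.66 and 1.54, and the bars of the scaRNAs are shorter than those of SNORA48 or SNORD15B.

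The other 25 genes had means below 1 FPKM and were left out of the comparisons above. SNORA12, in an intron of CWF19L1 at chr10:101996913-101997059, is named because its values stood out after they were seen. It was at 1.24, 1.21 and 2.14 FPKM in EV, was listed at 0 in all 3 Short libraries, and was at 0.279, 0 and 0 FPKM in Long. It was the only one of the 36 above 0 in all libraries of 1 group and at 0 in all of another. No main test is given for it, since it was picked for this pattern. It enters the counts of the closing section at a minimum mean of 0.1 FPKM, which are no support for a difference. Its host CWF19L1 averaged 17.5 FPKM in EV, 20.3 in Short and 19.6 in Long. SNORA27 and SNORA7A were at 0 in all EV libraries, and SNORA7B and SNORA45 at 0 in all Long libraries. High single values were frequent, for example SNORA63 at 5.72 FPKM in EV 2 and at 1.24 FPKM or below in the other libraries, or SNORA5A at 3.71 and 3.66 FPKM in Long 1 and Long 2 and at 0.298 FPKM or below elsewhere.

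The snoRNAs that act in cleavage of the ribosomal RNA precursor, some of which also guide its modification, were looked up as a list of 15 genes, of which 8 had a match by symbol in the table. Of these, 7 were listed at 0 in all 9 libraries, among them SNORD13 and SNORD118, of which the latter is needed to make the large ribosomal subunit, so a value of 0 here does not show that an RNA was absent. The gene matched as SNORD22, of 114 nt, may be a further copy and not the cleavage snoRNA itself. The remaining gene, SNORA73B in an intron of RCC1, was at 0, 0 and 2.87 FPKM with EV, 0.960, 1.33 and 1.18 with Short and 0.497, 1.47 and 1.34 with Long. Its groups overlapped, and the differences were 0.45 for Short against EV (SE 0.34, adjusted p = 0.451) and 0.39 for Long against EV (SE 0.34, adjusted p = 0.520). Without replicate 3, whose pair alone was lower in Long, the second was 0.94 and passed (adjusted p = 0.0152), and without replicate 2 it was -0.071. Passing once the opposing pair is dropped is no support for a difference.

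The protein genes of the same pathway were tested in the same fit. Of 47 genes on 5 lists, 46 were matched and all 46 were tested. In Short against EV none passed by limma (16 at an unadjusted p under 0.05, where 22% of all genes were), in Long against EV 2 were higher and 5 lower, and in Long against Short none passed (6 at an unadjusted p under 0.05, where 7.54% of all genes were). The 7 of 46 in Long against EV stand beside the 8.32% of all genes. The median log2 fold change of the 46 genes was 0.07 in both comparisons with EV. FBL, the methyltransferase of box C/D particles, averaged 262.9 FPKM in EV, 294.6 in Short and 310.4 in Long, with a rise of 0.24 in Long (SE 0.04, adjusted p = 0.0105). The other box C/D core proteins, NOP56, NOP58 and SNU13, did not pass in any comparison, nor did the box H/ACA core proteins DKC1, which makes pseudouridine, NOP10, NHP2 and GAR1. NOP58 gave -0.26 (adjusted p = 0.0628) and GAR1 0.22 (adjusted p = 0.0623) in Long against EV.

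Of the 10 matched assembly factors, RUVBL2, an ATPase, rose by 0.18 in Long (SE 0.05, adjusted p = 0.0402), and its partner RPAP3 fell by 0.56 (SE 0.10, adjusted p = 0.0137). Of 11 Cajal body proteins, ICE1 and NPAT fell in Long by 0.38 and 0.52 (adjusted p = 0.0251 and 0.0223). COIL, the marker protein of Cajal bodies, gave -0.05 in Short and -0.01 in Long, and WRAP53, which brings scaRNAs there, 0.21 and 0.14, none past the threshold. Of 17 genes of 3′ end processing and decay, DIS3, a nuclease of the RNA exosome, and MTREX, its helicase, fell in Long by 0.72 (SE 0.12, adjusted p = 0.0102) and 0.64 (SE 0.12, adjusted p = 0.0128). DIS3 averaged 44.5 ± 9.62 FPKM (SD, n = 3) in EV, 35.4 ± 14.7 in Short and 28.6 ± 15.9 in Long, so that the fall was seen within the 3 pairs and not as a separation of the groups. After a correction for GC content, the count in Long against EV was 1, and it was 0 without the replicate block, without replicate 1 and without replicate 2.

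Of the 33 measured hosts none passed in Short against EV by limma (11 at an unadjusted p under 0.05, beside 22% of all genes) and none in Long against Short (1 at an unadjusted p under 0.05, beside 7.54%). In Long against EV 3 of the 33 passed, a share near the 8.32% of all genes. Of these, RPS3 was higher by 0.16 (SE 0.03, adjusted p = 0.0172), and IPO7 and CEP295 were lower, at -0.61 (SE 0.11, adjusted p = 0.0111) and -0.65 (SE 0.13, adjusted p = 0.0163). SCARNA9, which lies in CEP295, gave 0.23 in the same comparison (SE 0.22, adjusted p = 0.557). The hosts EIF4A1, RPLP2 and RPS7 gave 0.13, 0.12 and 0.09 in Long against EV, with adjusted p-values of 0.0704, 0.0830 and 0.290. The count of hosts called in Long against EV was 1 after the GC correction and 0 without the replicate block, without replicate 1 or without replicate 2.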

How the data were processed

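RNA from HEK293 cells was selected for poly(A), made into strand-specific libraries and sequenced as paired ends. The authors aligned reads with TopHat 1.4.1 to hg19, and the deposited table holds FPKM per Ensembl gene. The processing notes also name Cufflinks, for which no version is given in the sources used here. Of 54562 gene identifiers, 47578 (87.2%) were matched to symbols of GENCODE v44lift37 (GRCh37), which also gave positions and lengths, and 3 older symbols were matched through RefSeq synonyms. Sequences were read from GRCh37. One sequence is not reported here. The genes and lists were chosen with earlier results of these data known.

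log2(FPKM + 1) was fitted with limma 3.58.1 (R 4.3.3; lmFit, eBayes with trend) for genes whose mean reached 1 FPKM, with group and replicate as terms, over all 9 libraries, at an adjusted p threshold of 0.05. Same-numbered libraries were taken to share a cell passage. Their deviations from the group means correlated at 0.327 to 0.813 (9 pairs, mean 0.552). The mean for different numbers was -0.256. Deviations cancel out within a group, so a negative mean there follows from the positive one and adds no further evidence. The fit was run on simulated data with normal noise, where all 200 genes shifted by 1.5 were recovered, with 7 false calls. That simulation held no zeros or steps as in the snoRNA genes, so it does not bear on their calls. Genes were named by rule: SNORA21, genes past the threshold, the 5 highest of each class, up to 5 of the largest same-sign changes per comparison, measured cleavage snoRNAs, their hosts, the core proteins, WRAP53, COIL and list genes past the threshold. Other genes named as examples of length, position, steps or single values were picked after their values were seen. Alternatives changed the pseudocount, scaling, block, libraries fitted, trend, filter, GC content and replicates.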

Additional observations from a re-analysis of the deposited data

How the results depend on the processing

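The call of SNORA21 depended on the settings. In Short against EV its log2 fold change of 1.66 lost the threshold without the replicate block (adjusted p = 0.579 by limma), with only the groups compared (0.0573), without a trend (0.0972), with no filter (0.223), with a minimum mean of 0.1 FPKM (0.0522) and with a GC correction (1.59, adjusted p = 0.0520). In Long against EV its 1.54 lost it without the block (0.637) and with no filter (0.104). Leaving out 1 replicate number at a time gave 1.44 to 1.87 and 1.22 to 1.77. Without replicate 1 both calls were lost, as given above. A minimum mean of 5 FPKM left 1 of the 36 genes, not SNORA21, so no value could be given. The cause was not tested.

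The number of snoRNA and scaRNA genes called in Short against EV, 1, became 0 without the replicate block, with only the groups compared, without a trend, with no filter, with a minimum of 5 FPKM, with the GC correction, among the 6 genes above 0 in all libraries and among the 5 tested genes outside exons of other genes, and it was 0 to 4 with 1 replicate left out. With a minimum of 0.1 FPKM it was again 1, but the gene was SNORA12 and not SNORA21. SNORA12 was picked for its values, so its calls are no support for a difference. In Long against EV, 1 became 0 without the block, with no filter, with a minimum of 5 FPKM and in the same 2 subsets. It was 2 with a minimum of 0.1 FPKM, where SNORA12 was called beside SNORA21, and 0 to 3 with 1 replicate left out. In Long against Short, 0 became 1 with only the groups compared and 0 to 3 with 1 replicate left out. Without the replicate block, the 7 protein genes and the 3 host genes called in Long against EV both became 0. They became 0 and 0 with no filter and 1 and 1 with the GC correction, and the protein genes 4 without a trend. With 1 replicate left out they ranged from 0 to 7 and from 0 to 3, and the protein genes in Short against EV from 0 to 1. The share of all genes called under each alternative setting is not given here. These counts can therefore not be read as high or low for the genes in question.

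Some fold changes turned sign when a replicate was left out. SNORA21 in Long against Short ran from -0.25 to 0.10. In Long against EV the ranges were -0.55 to 0.16 for SNORA52, -0.19 to 0.43 for SNORA71B and -0.071 to 0.94 for SNORA73B. The last was 0.39 in the main fit. SNORA52 also turned to 0.0797 with a pseudocount of 0.1. For SNORA21, 5 of 12 alternatives in Short against EV and 9 of 12 in Long against EV kept direction and side of the threshold. For 17 other named fold changes, none of which had passed, 192 of 206 did, and SNORA12 was not counted. Depth is unknown, and 35 of 73 pairs of values at one length were equal or at another whole ratio, within 0.5%.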
